A study of Homo sapiens with 36 samples.

Results

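The 10 genes followed here belong to the integrated stress response, and their transcripts were measured by RNA-seq of HCT-116, a human colorectal cancer cell line: ATF4, DDIT3, DDIT4, ASNS, TRIB3, CHAC1, PSAT1, PHGDH, SLC3A2 and PPP1R15A. They were chosen by name, as the transcription factor ATF4 and genes it is known to act on, but with earlier results of these data known. Counts of these genes set beside the share of all tested genes are therefore descriptions and not tests of the pathway. The 10 make 10 of the 62757 genes in the count tables and 10 of the 12356 genes that held enough reads to be tested. The genotypes were the parental line (WT) and an FBXW7-/- derivative (KO), in which the substrate receptor of a ubiquitin ligase is disrupted. KO cells received a control esiRNA (esiCT), an esiRNA pool against the histone deacetylase HDAC4 (esiHDAC4), or esiCT with #11, a PROTAC, that is, a compound that brings its target to a ubiquitin ligase for degradation. It was made against HDAC4 but, per the study, also degrades the other class IIa histone deacetylases, so that #11 and esiHDAC4 do not remove the same set of proteins. Each of these 3 conditions, and WT, was left untreated or given 50 µM oxaliplatin (OXPT), a platinum drug that crosslinks DNA, for the last 24 h of a 48 h transfection, which gives 8 groups of 3 libraries. The labels state the dose of #11 as 1 µM in one entry and 10 µM in another, and those of the WT libraries name the control siRNA in the title but esiHDAC4 in the treatment entry, so the groups are called WT untreated and WT OXPT, with the esiRNA unsettled. A further 12 libraries, all of WT cells, carry entries that contradict each other on whether OXPT was given, and they were kept out of every comparison. All KO libraries come from one purchased derivative of one line, so a difference between KO and WT cannot be told apart from a difference between lines, and nothing in the labels says whether the 3 libraries of a group came from separate cultures.

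In the integrated stress response, kinases that sense amino acid shortage, misfolded proteins, double-stranded RNA or haem deficiency phosphorylate the translation factor eIF2. Most translation then slows while that of ATF4 rises, and ATF4 turns on genes for amino acid synthesis and import, for redox balance and, when the stress lasts, for growth arrest and cell death. Because ATF4 is regulated mainly in translation, its mRNA is an indirect reading of the pathway, and the transcripts of its targets are the usual readout of RNA-seq. In tumour cells the pathway is known for supporting growth when amino acids are scarce.

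ATF4 acts with C/EBP proteins on a composite DNA element, and the promoters of the genes were searched for it to show where the known handle of the pathway lies. RefSeq promoter windows of 300 bases, from 250 before to 50 after each start site on GRCh38.p14, were found for all 10 genes, 17 windows in all because some genes have several starts. The C/EBP-ATF response element TGATGNAA, searched on both strands, was in 3 of the 17 windows, those of ASNS, CHAC1 and SLC3A2, and in 3.62% of 35116 promoters of the same length. The cAMP response element TGACGTCA was in 1 window, that of PPP1R15A, and in 1.85% of all promoters. The endoplasmic reticulum stress response element was in none of the 17 and in 0.0769% of all. A match is a description of letters and not of a bound site, and the windows leave out introns and distal elements. The matched stretches follow, read 5′ to 3′ on the strand of the gene with the element in capitals.
ASNS, chr7:97872443-97872502, minus strand, element 68 bases before the start: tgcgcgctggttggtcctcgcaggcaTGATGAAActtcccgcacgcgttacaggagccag
CHAC1, chr15:40953236-40953295, plus strand, element 209 bases before the start, on the opposite strand: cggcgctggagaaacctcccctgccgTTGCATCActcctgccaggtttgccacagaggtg
SLC3A2, chr11:62881725-62881748, plus strand, element 38 bases after one of its starts, on the opposite strand: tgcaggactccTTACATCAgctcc
PPP1R15A, chr19:48872337-48872396, plus strand, cAMP response element 58 bases before the start: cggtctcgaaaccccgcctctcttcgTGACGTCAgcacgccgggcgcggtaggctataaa

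Levels are given as CPM, a gene's share of the counts of its library, after TMM scaling. In bulk RNA, fewer cells with a transcript and less of it per cell cannot be told apart. Counts assigned to genes ran from 10725966 to 20527222 per library (median 14510758). OXPT raised CDKN1A, a p53 target that marks the response to DNA damage, in all 4 backgrounds, by 2.55 to 3.18 on the log2 scale. MDM2, read as a second check, also had a higher mean after OXPT in all 4. In WT, from lowest to highest, it was at 57.3, 67.9 and 91.5 CPM untreated and at 54.5, 353 and 366 after OXPT. So 1 WT OXPT library lay below every untreated WT library for MDM2. The HDAC4 transcript was at 10.9 ± 3.48 CPM with esiHDAC4 and 19.1 ± 5.45 with esiCT in untreated KO cells (log2 fold change -0.82 ± 0.24 SE, adjusted p = 0.561), and #11 acts on the protein, so the silencing was not called on the transcript, and the transcript does not check the compound. Under OXPT it was at 3.88 ± 0.481 CPM with esiHDAC4 and 6.50 ± 0.915 with esiCT, every esiHDAC4 library being the lower. The study itself shows immunoblots of HDAC4 in KO cells after silencing, and reports its degradation there by #11. FBXW7 reads were present in the KO libraries (16.9 against 21.1 CPM in WT untreated), so the transcript does not check the knockout. Of 11 epithelial markers, 6 held enough reads to be tested, and KRT20, CDX1, VIL1, CDH17 and LGALS4 did not. Of 10 markers of immune, endothelial and stromal cells, 1 did (COL1A1), and their sum stayed between 28.1 and 79.0 CPM.

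A single library stood apart in these genes. WT untreated replicate 3 correlated at r = 0.873 with the mean of the other WT untreated libraries across genes, and 31.3% of its genes lay more than 2-fold from that mean. It was the highest of all 24 libraries for 8 of the 10 genes, against 11.7% of all tested genes. The exceptions were ASNS and PSAT1. Its level over the mean of the other WT untreated libraries was 20.9-fold for DDIT3, 13.2-fold for CHAC1, 12.8-fold for PPP1R15A, 9.64-fold for TRIB3, 5.83-fold for DDIT4 and 4.44-fold for SLC3A2, and 2.17- to 3.72-fold for ATF4, ASNS, PHGDH and PSAT1. WT OXPT replicate 3 was also above its group, by 5.78-fold for CHAC1, 4.17-fold for DDIT3 and 3.55-fold for PPP1R15A. The spread of a gene is estimated over all 8 groups, so this library enters the error of every comparison, those among KO groups included. Numbers of the 10 genes called are therefore also given without it and, among KO groups, from a fit to the 18 KO libraries alone, a setting chosen after the data were seen. KO esiCT OXPT replicate 3 stood apart over all genes as well (r = 0.886) and had the highest share of unmapped reads, 22.3%.

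ATF4 (chr22:39519695-39522683, plus strand, GRCh38) encodes the factor itself. Its level was 625, 683 and 593 CPM in the KO esiCT untreated libraries and 508, 440.3 and 568 after OXPT. With esiHDAC4 it was 543, 621 and 435 untreated and 668, 622 and 654 after OXPT. With #11 it was 1154, 1217 and 972 untreated and 635, 626 and 926 after OXPT. The untreated #11 libraries were the 3 highest of the 18 KO libraries, although the lowest of them exceeded the highest other KO library only 1.05-fold. In WT the level was 621, 457 and 1544 untreated and 515, 419.7 and 1251 after OXPT, so that replicate 3 was high in both states. A pseudogene, ATF4P3, is counted as a gene of its own, and reads that map to both places are counted for neither.

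DDIT3 (chr12:57516588-57521737, minus strand), which encodes the stress-induced factor CHOP, and TRIB3 (chr20:362835-397559, plus strand), a pseudokinase that it induces, act downstream of ATF4. DDIT3 was at 15.9, 11.0 and 7.92 CPM in KO esiCT untreated and 16.9, 14.2 and 24.4 after OXPT. With esiHDAC4 it was at 9.61, 9.86 and 5.48 untreated and 23.0, 23.7 and 12.8 after OXPT. With #11 it was at 114.6, 107 and 93.9 untreated and 12.4, 10.4 and 31.0 after OXPT. Every untreated #11 library was thus at least 3.03-fold above every other KO library. In WT it was at 11.6, 9.35 and 219 untreated and 15.4, 13.6 and 60.5 after OXPT. DDIT3 shares 355 exon bases, 27.2% of its exons, with MARS1 on the opposite strand, and the counts used here ignore strand; reads in that overlap cannot be assigned by strand.

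TRIB3 was at 54.2, 92.7 and 39.4 CPM in KO esiCT untreated and 64.6, 53.3 and 66.3 after OXPT, and with esiHDAC4 at 34.8, 52.4 and 33.9 untreated and 74.1, 67.6 and 61.3 after OXPT. With #11 it was at 387, 370.3 and 217 untreated and 55.5, 54.1 and 64.7 after OXPT. The lowest untreated #11 library was 2.34-fold above the highest of the 15 other KO libraries. In WT it was at 50.2, 54.4 and 504 untreated and 55.2, 54.9 and 113 after OXPT.

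CHAC1 (chr15:40952962-40956512, plus strand), an enzyme that breaks down glutathione, was at 20.4, 24.6 and 4.88 CPM in KO esiCT untreated and at 115, 121 and 75.3 in untreated KO cells with #11. After OXPT it was at 22.5, 10.0 and 18.2 with esiCT, 47.1, 29.5 and 24.5 with esiHDAC4 and 11.5, 9.50 and 36.4 with #11. The untreated #11 libraries lay above every other KO library, and under OXPT the #11 and esiCT libraries overlapped. It was at 13.8, 13.8 and 5.26 with esiHDAC4 untreated, and in WT at 15.3, 11.5 and 177 untreated and 19.3, 11.0 and 87.6 after OXPT. PPP1R15A (chr19:48872212-48876059, plus strand) encodes GADD34, which directs a phosphatase to eIF2 and so ends the response. It was at 40.6, 52.5 and 60.7 CPM in KO esiCT untreated, 273, 234 and 231 with #11, and 76.3, 78.8 and 101 with #11 and OXPT. In the other KO groups it was at 47.6, 50.8 and 43.7 with esiHDAC4 untreated, 70.2, 134 and 91.4 with esiCT and OXPT, and 60.2, 125 and 129 with esiHDAC4 and OXPT. All KO OXPT libraries without #11 except esiHDAC4 replicate 1 were above all untreated KO libraries without #11, and the untreated #11 libraries were above both. In WT it was at 60.4, 55.3 and 742 untreated and 74.4, 111 and 328 after OXPT.

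Amino acid synthesis is represented by ASNS, PSAT1 and PHGDH. ASNS (chr7:97851677-97872542, minus strand), asparagine synthetase, was at 2.25, 2.61 and 0.989 CPM in KO esiCT untreated, 7.11, 8.21 and 12.2 with #11, and 0.706, 0.823 and 2.16 with #11 and OXPT. The other KO groups lay between 0.867 and 5.35 CPM and the WT libraries between 0.938 and 8.89. It held only 9 to 174 counts per library and passed the count minimum only through the untreated #11 group, so that it was tested only because it was high there. Counts of calls in comparisons with that group are therefore also given over the other 9 genes. Its exons share 2415 bases, 49.3%, with a readthrough transcript on the same strand, and reads that fall in both are left out as ambiguous. PSAT1 (chr9:78297125-78330093, plus strand), of serine synthesis, was at 248, 309 and 87.8 CPM in KO esiCT untreated, 494, 554 and 472 with #11, and 90.6, 102 and 219 with #11 and OXPT. After OXPT with esiCT it was at 185, 68.9 and 104, so that the groups overlapped there, and with esiHDAC4 it was at 207, 301 and 108 untreated and 320.5, 120.2 and 108 after OXPT. In WT it was at 159.9, 224 and 416 untreated and 144, 92.8 and 143 after OXPT. PHGDH (chr1:119648411-119744218, plus strand), the first enzyme of serine synthesis, was at 249, 282 and 168 CPM in KO esiCT untreated and 113, 62.7 and 91.9 after OXPT, at 121, 172 and 118 and then 91.5, 66.0 and 87.8 with esiHDAC4, at 385, 369 and 339.8 and then 117, 124 and 135 with #11, and at 207, 165 and 444 and then 109, 57.0 and 115 in WT. PHGDH was lower in all 3 OXPT libraries than in all 3 untreated libraries in each of the 4 backgrounds, which held for 14.8% of tested genes in KO with esiCT, 16.6% with esiHDAC4, 20.1% with #11 and 9.81% in WT.

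SLC3A2 (chr11:62856004-62888880, plus strand), the heavy chain shared by several amino acid transporters, was at 438, 609.8 and 318 CPM in KO esiCT untreated and 1014, 1062 and 898 with #11. It was at 552, 503 and 539.7 after OXPT with esiCT, 545, 527 and 615 with esiHDAC4 and 419, 401 and 424 with #11. The highest KO values were again those of the untreated #11 libraries. With esiHDAC4 untreated it was at 306, 399.9 and 289.8, and in WT at 438, 361 and 1774 untreated and 487, 395 and 794 after OXPT. DDIT4 (chr10:72273919-72276036, plus strand), an inhibitor of mTORC1 also known as REDD1, was the exception among the 10. It was at 327, 191 and 594 CPM in KO esiCT untreated, 634, 721 and 422 with #11, and 301, 279.6 and 253 with #11 and OXPT. In WT it was at 643, 354 and 2902 untreated and 445, 298 and 1091 after OXPT. Replicate 2 was the lowest and replicate 3 the highest library in all 4 KO groups with esiCT alone or esiHDAC4, a spread wider than the differences between the means of those groups. Per kilobase of exon, mean levels in untreated KO cells with #11 ran from 427 CPM per kb for ATF4 over 279.7 for DDIT4 and 229.7 for PSAT1 to 1.87 for ASNS.

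**Figure D1:**
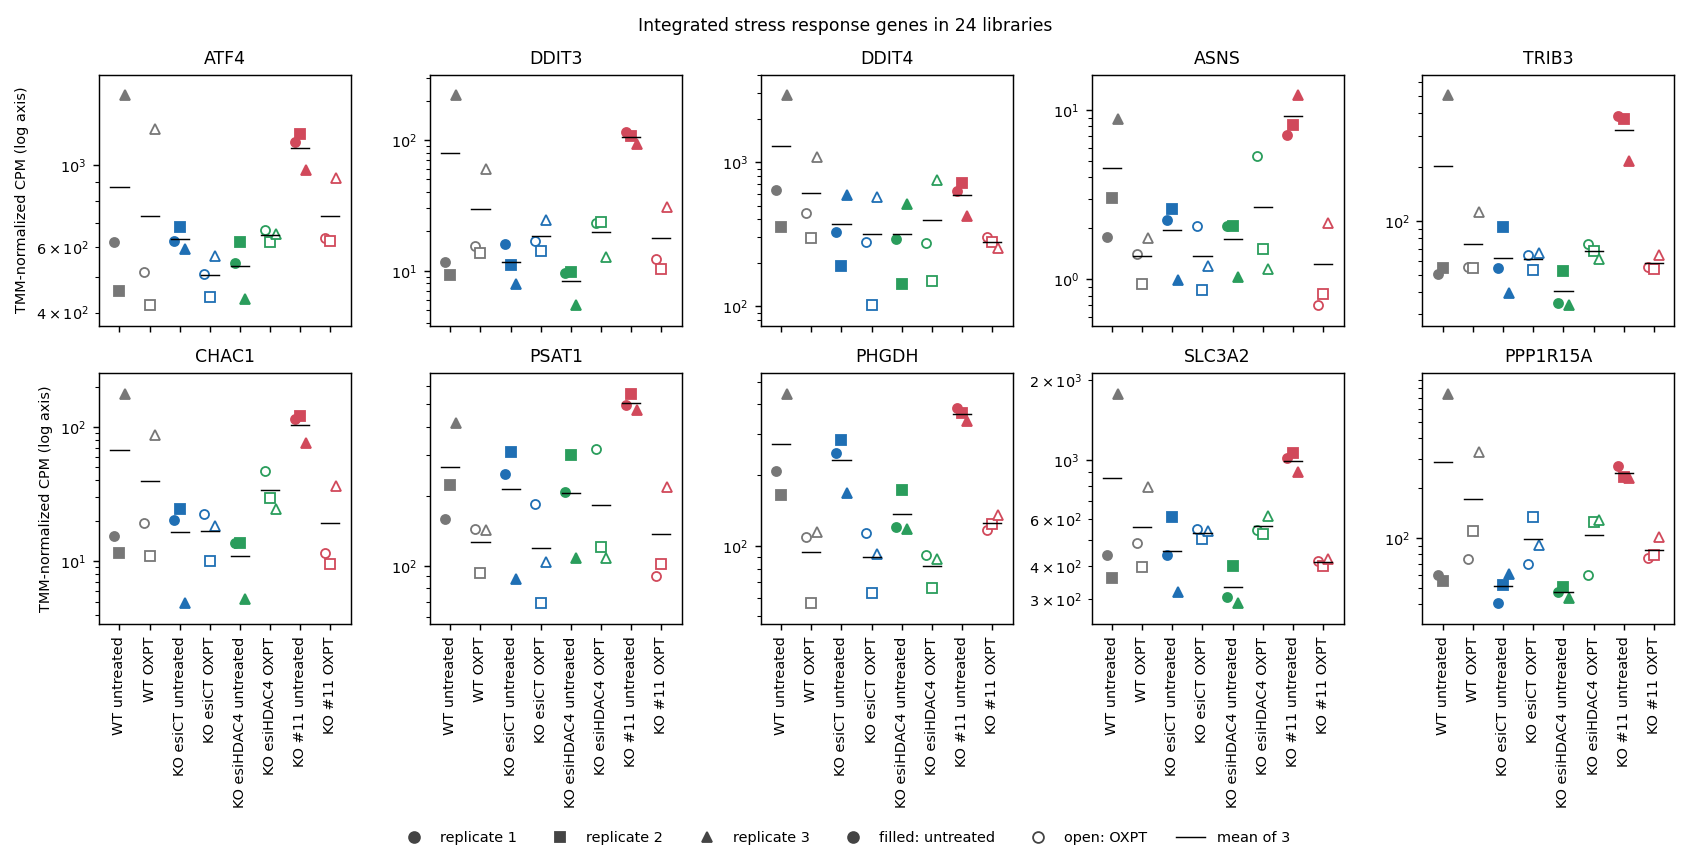
TMM-scaled CPM (log axis) of the 10 genes in every library of the 8 groups. Marker shape gives the replicate number, filled symbols are untreated and open symbols OXPT-treated, and bars are group means. For 9 of the 10 genes the 3 untreated #11 libraries lie above the other 15 KO libraries, DDIT4 being the exception, and WT untreated replicate 3 lies far above its group.

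The difference between #11 and esiCT in untreated KO cells was the first comparison of interest. Deviations of same-numbered libraries from their group means had r from -0.25 to 0.11 here, and from 0.28 to 0.79 between esiHDAC4 and esiCT. The labels do not say whether the #11 libraries were made together with the others. The compound and a separate experiment therefore cannot be told apart in any comparison of #11 with another KO group. All 10 genes were higher on average with #11 than with esiCT alone, by a median of 1.73 on the log2 scale, while the median of all tested genes was -0.0034. Without ASNS, which was tested only through its level in this #11 group, the median of the 9 others was 1.24. For 9 of the 10, ASNS among them, the 3 untreated #11 libraries exceeded all 15 other KO libraries, which held for 488 of the tested genes (3.95%). With all 24 libraries none of the 10 passed the test, edgeR's quasi-likelihood test, in which a call needs a change over 1.5-fold and, after Benjamini-Hochberg adjustment, a p under 0.05. Of all tested genes 0.51% were called, 0.38% higher. At an unadjusted p under 0.05 there were 8 of the 10, against 13.8% of tested genes, and DESeq2 called 2, ASNS and PPP1R15A, against 3.31% of tested genes, and gave DDIT3 and TRIB3 no adjusted p. It gave them none in the OXPT comparison of any background either. A gene without an adjusted p cannot be called, which limits every statement on DESeq2 calls below. Without ASNS 7 of 9 genes had that p, and DESeq2 called 1. DDIT3 stood at a log2 fold change of 3.18 ± 0.87 (SE, adjusted p = 0.0908), CHAC1 at 2.64 ± 0.91 (adjusted p = 0.172), TRIB3 at 2.39 ± 0.61 (adjusted p = 0.0824), PPP1R15A at 2.26 ± 0.70 (adjusted p = 0.13) and ASNS at 2.23 ± 0.61 (adjusted p = 0.0908). Changes of the others were smaller, from 0.65 ± 0.32 for PHGDH and 0.68 ± 0.73 for DDIT4 to 0.81 ± 0.37 for ATF4, 1.12 ± 0.41 for SLC3A2 and 1.24 ± 0.52 for PSAT1.

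The calls depended on which libraries set the spread. Without WT untreated replicate 3, which is in neither group, 6 of the 10 were called higher (DDIT3, CHAC1, TRIB3, PPP1R15A, ASNS and SLC3A2), against 1.91% of tested genes. Over the KO libraries alone 7 were called higher, those 6 and ATF4, against 2.11% of tested genes. Without ASNS these counts were 5 and 6 of 9. Leaving out WT untreated replicate 1 or 2 instead gave 1 and 2 calls, with 87 and 111 called over all genes. For DDIT3 the adjusted p was 0.003 without WT untreated replicate 3 and 0.000538 over the KO libraries, and the log2 fold change stayed between 2.38 and 3.47 over all 35 alternatives tried, of which 7 called it. Their adjusted p ranged up to 0.996. DDIT4, PSAT1 and PHGDH were called in neither of these settings.

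A direct comparison of #11 with esiHDAC4 in untreated KO cells asked whether compound and silencing gave the same levels. All 10 genes were higher with #11, by a median of 1.98 on the log2 scale against -0.0003 for all genes. Without ASNS the median of the 9 others was 1.58. The test called 3 of them higher, against 1% of tested genes: DDIT3 by 3.66 ± 0.89 (adjusted p = 0.0472), TRIB3 by 3.01 ± 0.62 (adjusted p = 0.0314) and PHGDH by 1.41 ± 0.33 (adjusted p = 0.0409). CHAC1 stood at 3.24 ± 0.93 (adjusted p = 0.0904), ASNS at 2.39 ± 0.61 (adjusted p = 0.0581), PPP1R15A at 2.38 ± 0.71 (adjusted p = 0.103) and SLC3A2 at 1.58 ± 0.41 (adjusted p = 0.0659). The number of calls rested on single libraries. None of the 10 was called when any 1 of the 6 libraries compared was left out and 1 was without KO esiCT untreated replicate 1, KO esiHDAC4 OXPT replicate 3 or KO #11 OXPT replicate 1 or 2, whereas 5, 6 and 7 were called without WT untreated replicate 1, 2 or 3, the last against 2.92% of tested genes. Calls over all genes moved with them, from 145 in the main fit to between 1 and 10 without any 1 of those 6 libraries. They were 86, 101, 95 and 56 in the fits with 1 call, in the same order, and 164 and 225 without WT untreated replicate 1 or 2. Over the KO libraries alone 8 were called, all but DDIT4 and PSAT1, against 3.35% of tested genes called higher. Without ASNS 3 of 9 were called with all libraries, 6 without WT untreated replicate 3 and 7 over the KO libraries. The esiHDAC4 libraries differ from the #11 libraries in the esiRNA as well as the compound, and this comparison shares the untreated #11 libraries with the preceding one.

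Silencing HDAC4 by esiRNA left the 10 genes without a call. In untreated KO cells all 10 were lower on average with esiHDAC4 than with esiCT (median log2 fold change -0.35), none was called by edgeR or DESeq2, and 1, PHGDH at -0.77, had an unadjusted p under 0.05. Only 0.00809% of all tested genes were called there, and 3.19% had an unadjusted p under 0.05. Under OXPT none of the 10 was called by either tool or had an unadjusted p under 0.05, against 0% of tested genes called by edgeR and 3.08% at an unadjusted p under 0.05. Without WT untreated replicate 3 and over the KO libraries alone none of the 10 was called in either state.

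The OXPT response was then read in each background. In KO cells with #11 all 10 genes were lower in every OXPT library than in every untreated library, which held for 20.1% of tested genes, with a median log2 fold change of -1.71 against -0.0024 for all genes. Without ASNS the median of the 9 others was -1.54. The test called 4 of them lower, 3 of 9 without ASNS, against 3.57% of tested genes: TRIB3 fell by 2.48 ± 0.61 on the log2 scale (adjusted p = 0.0125), PSAT1 by 1.88 ± 0.53 (adjusted p = 0.0272), PHGDH by 1.54 ± 0.33 (adjusted p = 0.00452) and ASNS, which was tested only through its level in the untreated group, by 2.89 ± 0.64 (adjusted p = 0.00624). DDIT3 stood at -2.55 ± 0.85 (adjusted p = 0.0619), CHAC1 at -2.44 ± 0.90 (adjusted p = 0.0948), PPP1R15A at -1.53 ± 0.69 (adjusted p = 0.18) and SLC3A2 at -1.26 ± 0.41 (adjusted p = 0.0575), while DDIT4 at -1.09 ± 0.74 and ATF4 at -0.61 ± 0.37 were further from the threshold. Without WT untreated replicate 3 there were 8 calls, all but DDIT4 and ATF4, against 5.48% of tested genes, and over the KO libraries alone 9, all but DDIT4, against 6.19%. Without ASNS these counts were 7 and 8 of 9. With the replicate number as a block 7 were called, DDIT3, CHAC1 and SLC3A2 beside the 4, at adjusted p of 0.0241, 0.0472 and 0.0397. Without KO #11 OXPT replicate 1 or 2 only 2 were. Over all genes 1713 were called with the block and 555 and 574 without those libraries, against 1175 in the main fit. This comparison shares the untreated #11 libraries with those above.

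Under OXPT the #11 and the esiCT libraries of KO cells overlapped for 7 of the 10 genes, while 9.46% of tested genes were higher and 4.89% lower in every #11 library. ATF4 and PHGDH were higher in all 3 #11 libraries, at 0.53 ± 0.37 and 0.49 ± 0.32 on the log2 scale, and SLC3A2 was lower, at -0.36 ± 0.40. DDIT3 was at -0.04 ± 0.81 and TRIB3 at -0.08 ± 0.58, errors that leave room for changes of over 1.5-fold either way. None of the 10 was called by edgeR or DESeq2 or had an unadjusted p under 0.05, against 0.121% called and 10.2% at that p among tested genes, and the median was -0.06. Against esiHDAC4 under OXPT none was called by either tool or had an unadjusted p under 0.05 (0.0971% and 10.5% of tested genes), with PHGDH at 0.61 ± 0.32 and ASNS at -1.13 ± 0.64. None of the 10 was called in either comparison without WT untreated replicate 3 or over the KO libraries alone.

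In KO cells with esiCT, PHGDH was the 1 gene called under OXPT, and it fell by 1.38 ± 0.33 on the log2 scale (adjusted p = 0.00832), against 5.08% of tested genes called lower. PPP1R15A stood at 0.94 ± 0.68 (adjusted p = 0.409), with all OXPT libraries above all untreated ones (15.3% of tested genes), and was called over the KO libraries (beside PHGDH, 15.8% of tested genes) and in 2 other alternatives of 35, and PSAT1 stood at -0.85 ± 0.52 (adjusted p = 0.315). In KO cells with esiHDAC4 none of the 10 was called by edgeR or DESeq2, the latter without an adjusted p for DDIT3 and TRIB3. Of tested genes 12% were called by edgeR. Of the 10, 1 had an unadjusted p under 0.05, against 25.4%. There 8 of the 10 had a positive log2 fold change, led by CHAC1 at 1.62 ± 0.88 (adjusted p = 0.261), DDIT3 at 1.25 ± 0.82 (adjusted p = 0.367) and PPP1R15A at 1.15 ± 0.68 (adjusted p = 0.31), while PHGDH was at -0.74 ± 0.32 (adjusted p = 0.148). Over the KO libraries alone 4 were called, DDIT3, SLC3A2 and PPP1R15A higher and PHGDH lower, against 16.2% of tested genes, and without WT untreated replicate 3 SLC3A2 alone was, against 8.34% called higher.

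The OXPT response itself was compared between backgrounds by an interaction term. Between #11 and esiCT no gene of the 10, and 0% of tested genes, were called by edgeR with all libraries, and DESeq2 called none of the 10. DESeq2 had given DDIT3 and TRIB3 no adjusted p for OXPT in either of these backgrounds, so its lack of a call says nothing on them. At an unadjusted p under 0.05 stood 5 of the 10, or 4 of 9 without ASNS, against 6.98% of tested genes, all with a more negative response with #11. They were DDIT3 at -3.22 ± 1.17 (adjusted p = 0.543), TRIB3 at -2.47 ± 0.83 (adjusted p = 0.478), PPP1R15A at -2.47, ASNS at -2.42 and SLC3A2 at -1.48. Without WT untreated replicate 3 TRIB3 was called, against 0.315% of tested genes, and over the KO libraries DDIT3, TRIB3, SLC3A2 and PPP1R15A were, against 0.579%. Between esiHDAC4 and esiCT and between KO esiCT and WT none of the 10, and no tested gene, was called by edgeR or DESeq2. None of the 10 had an unadjusted p under 0.05 in either, against 0.154% and 1.63% of tested genes. In the difference between KO esiCT and WT, 9 of the 10 differences were positive with WT untreated replicate 3 and 9 were negative without it.

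In WT the reading turned on replicate 3. With all libraries OXPT lowered PHGDH (-1.54 ± 0.33, adjusted p = 0.00408), 1 of 10 against 5.6% of tested genes called lower. Without WT untreated replicate 3 PHGDH was still lower (-0.98 ± 0.29, adjusted p = 0.0267) and PPP1R15A was higher (1.58 ± 0.46, adjusted p = 0.024), against 17% of tested genes called, where it had stood at -0.74 ± 0.67 with it. That was the 1 alternative of 34 that called PPP1R15A. Over the alternatives the adjusted p of PPP1R15A reached 0.798 and that of PHGDH 0.182. Values for DDIT3 went from -1.42 to 1.53, for CHAC1 from -0.79 to 1.57 and for TRIB3 from -1.45 to 0.51 when that library was left out. These fits removed replicate 3 from the untreated side only. They kept WT OXPT replicate 3, which exceeded the mean of the other WT OXPT libraries 3.55-fold for PPP1R15A, 4.17-fold for DDIT3, 5.78-fold for CHAC1 and 2.04-fold for TRIB3. There were 3 calls without WT untreated replicate 1 and 2 without replicate 2, with 1037 and 945 called over all genes. The comparison of untreated KO with untreated WT turned on the same library. None of the 10 was called by edgeR, against 0.291% of tested genes, and 1 was by DESeq2, which called 117 of all genes. At an unadjusted p under 0.05 in edgeR stood 6 of the 10, against 5.74% of tested genes. All 10 had overlapping groups, and 6.4% of tested genes did not. DDIT3 stood at -2.78 ± 0.86 with it and 0.15 ± 0.56 without it, PPP1R15A at -2.48 and -0.17, and CHAC1 at -2.02 and 0.32. Leaving out WT untreated replicate 1 or 2 gave 1 call each, with 89 and 88 called over all genes. Under OXPT the KO esiCT and WT libraries overlapped for all 10 genes, while 2.28% of tested genes were higher and 4.11% lower in every KO library. None was called by either tool (0.138% of tested genes by edgeR) or had an unadjusted p under 0.05 (5.4%), and the widest difference was that of CHAC1, at -1.21 ± 0.87. None was called without WT untreated replicate 3.

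**Figure D2:**
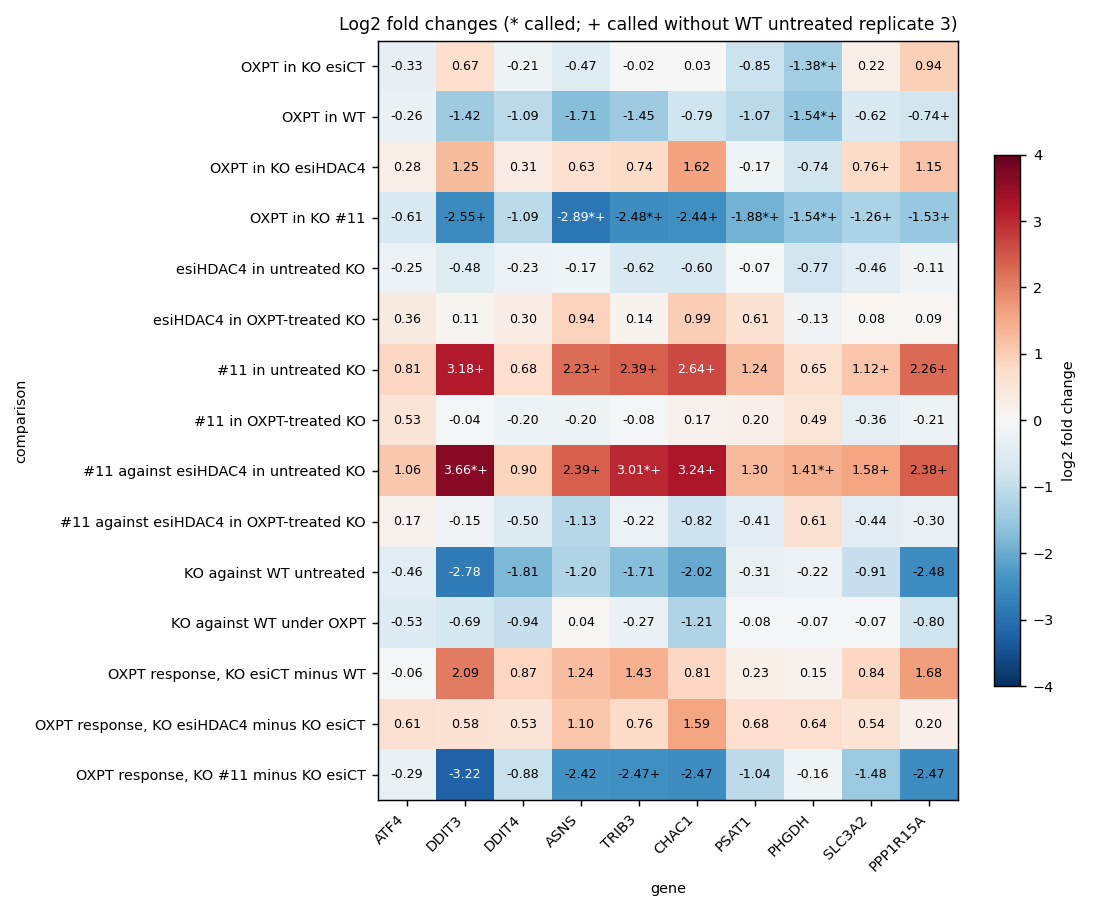
Log2 fold changes of the 10 genes (columns) in the 15 comparisons (rows), from the fit to all 24 libraries. An asterisk marks a call (adjusted p under 0.05 and a change over 1.5-fold) and a plus sign a call once WT untreated replicate 3 is left out; PPP1R15A under OXPT in WT is printed at -0.74 but is at 1.58 without that library. The rows of #11 in untreated KO cells and of OXPT in KO cells with #11 have opposite signs for all 10 genes; both comparisons share the untreated #11 libraries.

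The rest of the pathway was read from 9 lists of genes around the 10. Upstream, none of the 4 eIF2 kinases and none of the 12 subunits of eIF2, eIF2B and its phosphatase was called by edgeR or DESeq2 with #11 in untreated KO cells, with 0 and 2 at an unadjusted p under 0.05, near the 13.8% of all tested genes for the second list, and medians of -0.33 and -0.15 on the log2 scale. Both genes of the mitochondrial relay, which passes mitochondrial stress to an eIF2 kinase, were likewise called by neither tool, 1 having an unadjusted p under 0.05. EIF2B4, a subunit of the eIF2 exchange factor, rose with OXPT by 0.70 in KO with esiCT, 0.75 with esiHDAC4 and 0.76 in WT, where 6.23%, 6.44% and 5.1% of tested genes rose.

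Among transcription factors that work with ATF4, 7 of 8 could be tested and 6 were higher on average with #11 in untreated KO cells. ATF3, a stress-induced partner of ATF4, was called with all libraries (3.22 ± 0.65, adjusted p = 0.0390), against 0.38% of tested genes called higher. Without WT untreated replicate 3, ATF3, JDP2, CEBPG and CEBPB were called, 4 of 7 against 1.91% of tested genes. The same 4 were higher with #11 than with esiHDAC4, against 1% of tested genes called higher, ATF3 by 2.96, JDP2 by 2.16, CEBPB by 1.82 and CEBPG by 1.67. Under OXPT ATF3 rose in KO cells with esiCT (2.33 ± 0.63, adjusted p = 0.0192) and with esiHDAC4 (2.53 ± 0.63, adjusted p = 0.0114), where DDIT3 and TRIB3 were not called. With #11, where it was high before the drug, ATF3 stood at -1.15 ± 0.60 (adjusted p = 0.265), and JDP2 and CEBPG fell by 1.63 and 1.51.

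The amino acid transporters had values of 1 sign in each of these comparisons. With #11 in untreated KO cells all 9 had a positive log2 fold change (median 1.36). Of them 1 was called, against 0.38% of tested genes called higher: SLC7A1, a cationic amino acid carrier, at 1.36 ± 0.28 (adjusted p = 0.0390). Without WT untreated replicate 3 there were 4, against 1.91%. Against esiHDAC4 the 4 called, against 1% of tested genes called higher, were SLC6A9 at 2.12, SLC1A4 at 2.09, SLC43A1 at 1.74 and SLC7A1 at 1.25. With OXPT in KO cells with #11, 7 of 9 fell, against 3.57% of tested genes, and all 9 had a negative value (median -1.68). SLC7A1 fell by 2.18, SLC1A4 by 2.04, SLC6A9 by 1.84 and SLC43A1 by 1.22. SLC7A11, the cystine importer, fell by 3.51 ± 0.84 (adjusted p = 0.0105), more than any other listed transporter there; it was singled out after its values were seen.

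Amino acid synthesis and tRNA charging gave fewer calls. The shares of all tested genes to set beside the counts that follow are, with #11 in untreated KO cells, 0.51% called by edgeR, 3.31% called by DESeq2 and 13.8% at an unadjusted p under 0.05, and 3.57% lower with OXPT in KO cells with #11. Of 8 tested genes of serine, one-carbon and proline synthesis, none was called by edgeR and 2 were by DESeq2 with #11 in untreated KO cells, 4 had an unadjusted p under 0.05, and 3 fell with OXPT in KO cells with #11. GPT2, an alanine transaminase, fell there by 1.25 and was higher by 1.33 with #11 than with esiHDAC4. PYCR1, of proline synthesis, fell with OXPT by 1.00 in KO with #11, 1.08 in KO with esiCT and 0.88 in WT. Of 12 tRNA synthetases, none was called by edgeR and 1 was by DESeq2 with #11 in untreated KO cells, 3 had an unadjusted p under 0.05, and 4 fell with OXPT in KO cells with #11, AARS1 by 1.81 ± 0.33 (adjusted p = 0.00143). AARS1 was also higher with #11 than with esiHDAC4, by 1.78 ± 0.33 (adjusted p = 0.0285), and fell with OXPT in WT by 1.42 (adjusted p = 0.00771), a call that was lost without WT untreated replicate 3 (-0.73, adjusted p = 0.0601), as was that of PYCR1 in WT (adjusted p = 0.197). Of 10 tested stress outputs, such as secreted factors and death receptors, none was called by edgeR and 2 were by DESeq2 with #11 in untreated KO cells, 5 had an unadjusted p under 0.05, and 1, STC2, fell with OXPT in KO cells with #11.

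The other arms of the unfolded protein response, which run through IRE1 and ATF6 rather than eIF2, gave values on both sides of 0 under #11. With #11 in untreated KO cells 6 of 12 had a positive and 6 a negative value (median 0.03), and the 1 gene called, SDF2L1, a chaperone cofactor of the endoplasmic reticulum, fell by 1.10 ± 0.24 (adjusted p = 0.0435), against 0.129% of tested genes that fell. HSPA5, the main chaperone of the endoplasmic reticulum, stood at 0.11 ± 0.36 there. OXPT lowered HSPA5 by 1.33 in KO with esiCT, 1.32 in KO with #11 and 1.89 in WT. XBP1, the factor spliced by IRE1, fell by 1.18, 1.70 and 1.33 in the same order, and PDIA4, a disulfide isomerase, fell by 1.33 in KO with esiCT, 1.09 in KO with esiHDAC4, where 5.54% of tested genes fell, and 0.87 in WT. XBP1 was at -0.81 under OXPT in WT without WT untreated replicate 3 (adjusted p = 0.107), while HSPA5 and PDIA4 were still lower there. XBP1 was also higher with #11 than with esiHDAC4 in untreated KO cells, by 1.48 ± 0.36 (adjusted p = 0.0463).

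**Figure D3:**
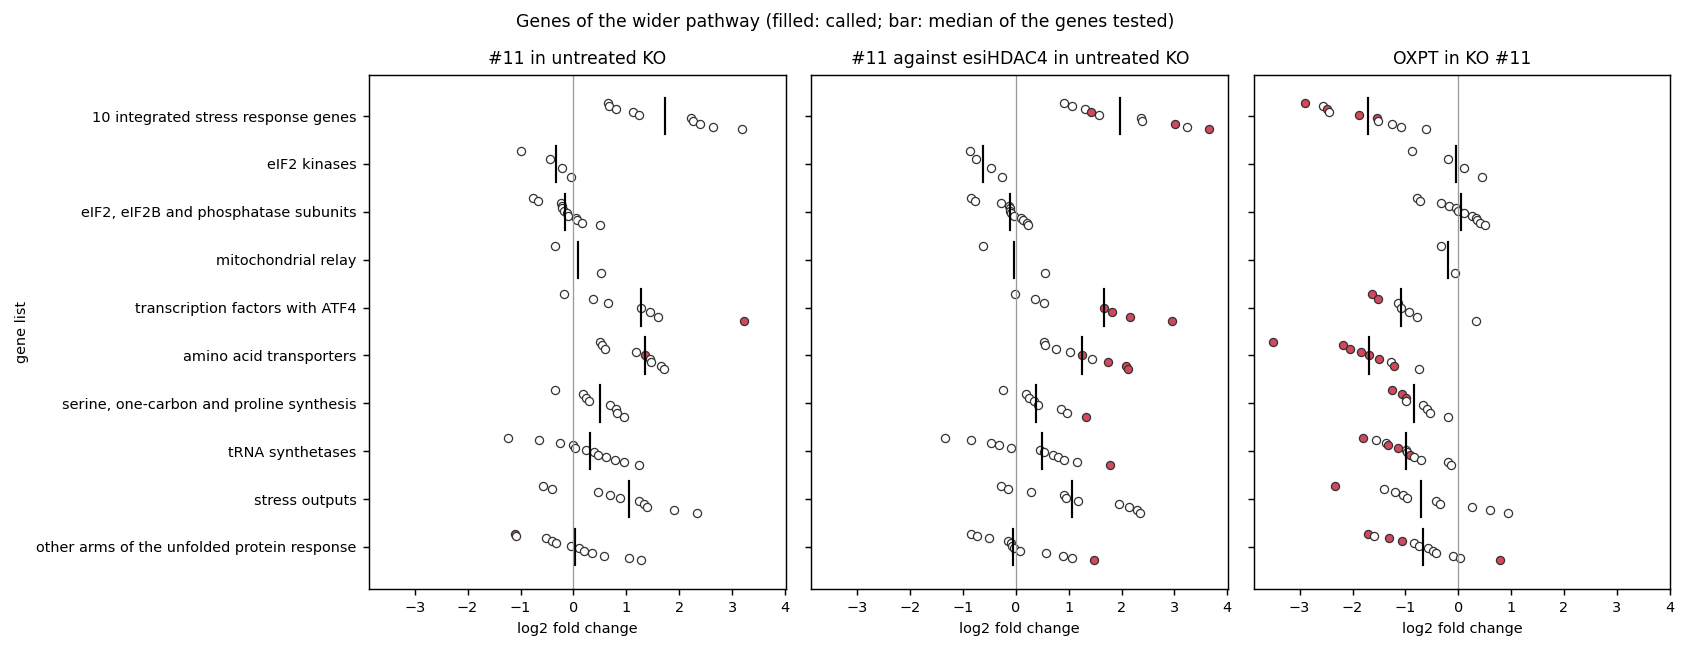
Log2 fold change (horizontal axis) of each tested gene of the 10 and of the 9 pathway lists (vertical axis) in 3 comparisons: #11 in untreated KO cells, #11 against esiHDAC4 in untreated KO cells, and OXPT in KO cells with #11. Filled points passed the test and bars are list medians. All 9 transporters lie above 0 in both comparisons of #11 and below 0 with OXPT in KO cells with #11, and none of the 4 eIF2 kinases passed the test in any panel.

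Genes whose levels ran most like those of ATF4 over the 24 libraries were ATF4P3 (Pearson r = 0.908), JDP2 (0.882), SLC25A38 (0.880), TSC22D3 (0.879) and ADM2 (0.878). Those most like ASNS were CEBPG (0.928), SLC1A4 (0.916), PCK2 (0.913), TMEM268 (0.907) and PTPDC1 (0.906). The points share the 3 untreated #11 libraries and WT untreated replicate 3 as high values. Over the 20 other libraries r with ATF4 ran from 0.694 for ADM2 to 0.816 for ATF4P3, its pseudogene. With ASNS it ran from 0.666 for PTPDC1 to 0.790 for SLC1A4, and CEBPG was at 0.774. ASNS held 9 to 174 counts per library and was tested only through the untreated #11 group. Among the 10 genes the median r of the 45 pairs was 0.72 (0.25 to 0.95) over 24 libraries and 0.28 (-0.57 to 0.91) over those 20.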

How the data were processed

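RNA was taken from HCT-116 cells as poly(A) mRNA libraries. The authors deposited, per library, whole-number gene counts as STAR writes them, and the submitters' processing notes name STAR 2.7.11a, Trimmomatic 0.39 and hg38; the annotation behind the counts is not given in the sources used here. Deposited counts came in 1 unstranded and 2 stranded columns. The stranded totals were nearly equal (ratio 1.00 to 1.02), so the unstranded column was used. Reads over more than 1 gene (10.6% to 12.2% of each library) and unmapped reads (7.74% to 22.3%) name no gene and were left out. Reads that map to more than 1 place are also outside the gene counts. Genes were matched by identifier to GENCODE on GRCh38 (62686 of 62757). The number of reads limits precision mainly for ASNS.

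Genes with a mean of at least 64 counts in 1 group were kept. One negative binomial model with a coefficient per group was fitted to the 24 libraries by edgeR 4.0.16 in R 4.3.3, with TMM scaling and the quasi-likelihood test, after a test on simulated data. A gene was called at a change over 1.5-fold with p under 0.05 after Benjamini-Hochberg adjustment across the tested genes; SE is the log2 fold change over the root of F. Alternatives were the reverse-strand column, DESeq2 1.42.0 size factors and test, other count filters, the replicate block, only the groups compared, and each library or number left out. The fit to the KO libraries was added after the data were seen.

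The 10 genes and the lists were chosen with earlier results of these data known. All 10 are named in the text, and genes of the wider lists where they were called under OXPT in 3 or more of the 4 backgrounds or in any other comparison, at most 6 per list, as are the 5 genes most like ATF4 and ASNS by Pearson r of log2 CPM (prior count 2). Same-numbered libraries deviated together (every r of their deviations from the group means over 0.1) in all OXPT, esiHDAC4 and KO against WT comparisons (lowest r 0.113), where the numbers were taken to pair the libraries. The main fit held no term for the number, so its p and SE leave this pairing unused. Only the alternative with the replicate block uses it. In those with #11 against another KO group they did not (lowest r -0.252 in untreated KO).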

Additional observations from a re-analysis of the deposited data

Results flagged for a closer look

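The 12 WT libraries that carry contradictory entries were set beside the 6 untreated WT and KO esiCT libraries after scaling all 36 libraries together. For 9 of the 10 genes the highest of the 12 exceeded the highest of those 6, which for all 10 was WT untreated replicate 3. The share of all tested genes for which this held was not counted. The highest of 12 libraries also exceeds the highest of 6 more easily than the reverse. The count is therefore not read as particular to these genes. Named by their titles, which other entries contradict, the WT PROTAC11 OXPT libraries held the highest ATF4 (2234 CPM in replicate 1, against 1518), ASNS (51.4 in replicate 3, against 8.74), CHAC1 (293 in replicate 1, against 174) and PSAT1 (802 in replicate 2, against 409). WT PROTAC11 replicate 1 held the highest PHGDH (687 against 436). The library titled WT siHDAC4 UNT 3 held the highest DDIT3 (222 against 216), TRIB3 (705 against 496), SLC3A2 (2209.8 against 1744) and PPP1R15A (747 against 729). The ratios for DDIT3 and PPP1R15A are close to 1, and no difference among these libraries was tested, since the labels put them in no group.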

How the results depend on the processing

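Numbers of the 10 genes called moved by over 1.5 times as follows. With no count filter they were 3 for OXPT in KO esiCT, 6 in WT, 3 in KO esiHDAC4 and 9 in KO #11, 7 for #11 in untreated KO, 10 for #11 against esiHDAC4 in untreated KO, 5 and 1 for KO against WT untreated and under OXPT, and 2 and 4 for the difference of the OXPT response of KO esiCT from WT and of KO #11 from KO esiCT. Over all genes, in the same order, 1866, 1956, 1904, 1459, 480, 741, 322, 91, 24 and 65 were called. In the main fit these were 1398, 1322, 1480, 1175, 63, 145, 36, 17, 0 and 0. DESeq2 gave 2 for OXPT in WT, 2 for #11 in untreated KO, 5 for #11 against esiHDAC4 untreated and 1 for KO against WT untreated. It called 1721, 409, 458 and 117 of all genes there, in the same order. With only the groups compared they were 0 for OXPT in WT, 3 in KO esiHDAC4, 10 in KO #11, 7 for #11 in untreated KO, 9 for #11 against esiHDAC4 untreated and 3 for the response of #11. All-gene calls moved with them, to 84, 1349, 2636, 566, 1751 and 20 in the same order. Over the KO libraries, a fit added after the data were seen, they were 2, 4 and 9 for OXPT in KO esiCT, esiHDAC4 and #11, 7 and 8 for #11 untreated against esiCT and esiHDAC4, and 4 for the response of #11. All-gene calls were 1933, 1991, 1606, 375, 562 and 71. The cause was not tested. With the replicate block 7 genes were called for OXPT in KO #11, 3 for #11 in untreated KO and 7 for #11 against esiHDAC4 untreated, where the numbers do not pair the libraries in the latter comparisons, and the number of calls did not change by over 1.5 times elsewhere. Of all genes 1713, 397 and 584 were called there. Leaving out a library or a replicate number gave 0 to 2 calls for OXPT in KO esiCT, 0 to 3 in WT, 0 to 4 in KO esiHDAC4 and 0 to 9 in KO #11, 0 to 7 for #11 in untreated KO, 0 to 9 and 0 to 3 for #11 against esiHDAC4 untreated and under OXPT, 0 to 1 for KO against WT untreated, 0 to 5 for the response of #11 and 0 in all other comparisons. All-gene calls moved too. For OXPT in KO #11 they were 74 without replicate 1 of every group and 2847 without replicate 3. For #11 in untreated KO they were 0 and 1816. Among differences with an unadjusted p under 0.05, the sign turned in 10 cases, each without WT untreated replicate 3 and again without replicate 3 of every group: TRIB3 under OXPT in WT went to 0.51 and 0.09, and for KO against WT untreated DDIT3 went to 0.15 and 0.37, TRIB3 to 0.25 and 0.50, CHAC1 to 0.32 and 0.76 and SLC3A2 to 0.19 and 0.40. Their lowest values with 1 library or number left out were -1.91, and, in the latter comparison, -3.58, -2.55, -2.91 and -1.54. Of 1455 alternative values for 42 differences of single genes with an unadjusted p under 0.05, 1237 kept their direction and side of the threshold, 145 passed it only in the alternative and 63 lost it. Counting depth limits ASNS most, at 9 to 174 counts per library.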

Other observations

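All 6 libraries titled WT PROTAC11, with or without OXPT in the title, lay above the 5 untreated WT and KO esiCT libraries other than WT untreated replicate 3 for 9 of the 10 genes, which held for 11.8% of all tested genes, and for DDIT4 5 of the 6 did. The count rests on leaving out that library. With it among the controls, all 6 lay above them only for ASNS. For CHAC1, PSAT1 and PHGDH 5 of the 6 did, for ATF4 3, for TRIB3 2, for SLC3A2 1, and for DDIT3, DDIT4 and PPP1R15A 0. Their DDIT3 ran from 66.5 to 143 CPM (median 102). Among the libraries titled WT siHDAC4 UNT, DDIT3 was at 9.99 in replicate 1, 119 in replicate 2 and 222 in replicate 3, and in those titled WT siHDAC4 OXPT it lay between 12.9 and 15.7. What these cells received was not settled by the labels.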
